A study of Macaca mulatta with 4 samples.

Results

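The genes described here are the 2 corticosteroid receptors and 7 genes of the corticosteroid response, measured by RNA sequencing in the amygdala of infant rhesus macaques (Macaca mulatta). They are 9 of the 35395 Ensembl macaque gene IDs in the deposited count table, chosen by symbol, and each of the 9 symbols matched 1 ID. NR3C1 (ENSMMUG00000000421) encodes the glucocorticoid receptor and NR3C2 (ENSMMUG00000014955) the mineralocorticoid receptor. The 7 others are FKBP5 (ENSMMUG00000011520), TSC22D3 (ENSMMUG00000057348), SGK1 (ENSMMUG00000008140), KLF9 (ENSMMUG00000063718), ZBTB16 (ENSMMUG00000007085), MT2A (ENSMMUG00000049822) and HSD11B1 (ENSMMUG00000059587).

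The study compared wild-type animals that inhaled sevoflurane, a halogenated ether used for general anaesthesia, with wild-type controls. The sevoflurane animals breathed about 2.5% to 3% of the agent for 4 hours on each of 3 occasions near postnatal days 7, 21 and 35, and the amygdala was collected straight after the last one. Each condition held 1 female and 1 male library. The sources used here do not give what the controls breathed, their age or the hour of collection. Nothing in the labels says whether a library came from 1 animal or several, so the p-values measure the spread between these libraries, which within a condition includes the difference between the sexes.

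Cortisol is the main glucocorticoid of primates and is released from the adrenal gland when the brain signals stress through corticotropin-releasing hormone. It binds the mineralocorticoid receptor with high affinity and the glucocorticoid receptor with lower affinity, and both receptors move to the nucleus and regulate genes there. The amygdala expresses both receptors and takes part in the response to threat. The genes chosen as targets are known to be induced by glucocorticoids in several tissues, and HSD11B1 encodes the enzyme that regenerates cortisol from inactive cortisone within cells.

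Reads on genes numbered 14413858 (female) and 13615927 (male) after sevoflurane, against 16293371 (female) and 12477047 (male) in controls. The 9 genes held 5636 and 5844 of these reads after sevoflurane, against 3594 and 2690 in controls. Markers from all 13 lists of cell types were detected. The 5 general neuronal markers summed to 5341 and 5974 CPM (read counts scaled to library size, with the TMM correction for differences in RNA makeup) in the sevoflurane libraries, against 4852 and 4381 CPM in the controls. These markers did not move together. SYT1 had 841 and 815 CPM after sevoflurane, against 36.2 and 7.37 CPM in controls. RBFOX3 went the other way, with 162 and 101 CPM against 298 and 240 CPM, and STMN2, SNAP25 and NEFL overlapped between the conditions. All 7 genes enriched in amygdala neurons were detected, although none of them is specific to the amygdala. The control male library stood apart by choroid plexus RNA, with 17640 CPM over the 5 tested markers of that epithelium, against 33.9 and 9.14 CPM in the sevoflurane female and male and 13.4 CPM in the control female. TTR alone made 17580 CPM of this sum. KCNJ13 (32.3 CPM), CLIC6 (27.4 CPM) and the untested FOLR1 (3291 reads) were also highest in the control male. KL (1.33 CPM) and SLC4A5 (2.31 CPM) were not. KL was highest in the sevoflurane male (4.81 CPM), with 2.72 CPM in the sevoflurane female. SLC4A5 was highest in the sevoflurane female, at 3.29 CPM.

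Of the 9 genes, 5 were higher in the sevoflurane libraries, 1 was lower and 3 were not called, by edgeR's quasi-likelihood test at a Benjamini-Hochberg adjusted p under 0.05 over all 15417 genes tested. KLF9 rose 13.5-fold, ZBTB16 6.29-fold, FKBP5 4.62-fold, NR3C2 2.89-fold and NR3C1 2.00-fold, while MT2A was 6.23-fold higher in controls. All 9 genes passed the filter on low counts. Over all tested genes 40.7% were called, 21.3% higher and 19.4% lower, so the background of calls in this comparison was large. The median log2 fold change of the 9 genes was 1.003, beside 0.0040 over all tested genes. In bulk tissue, fewer cells of a type and less RNA per cell cannot be told apart.

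**Figure D1:**
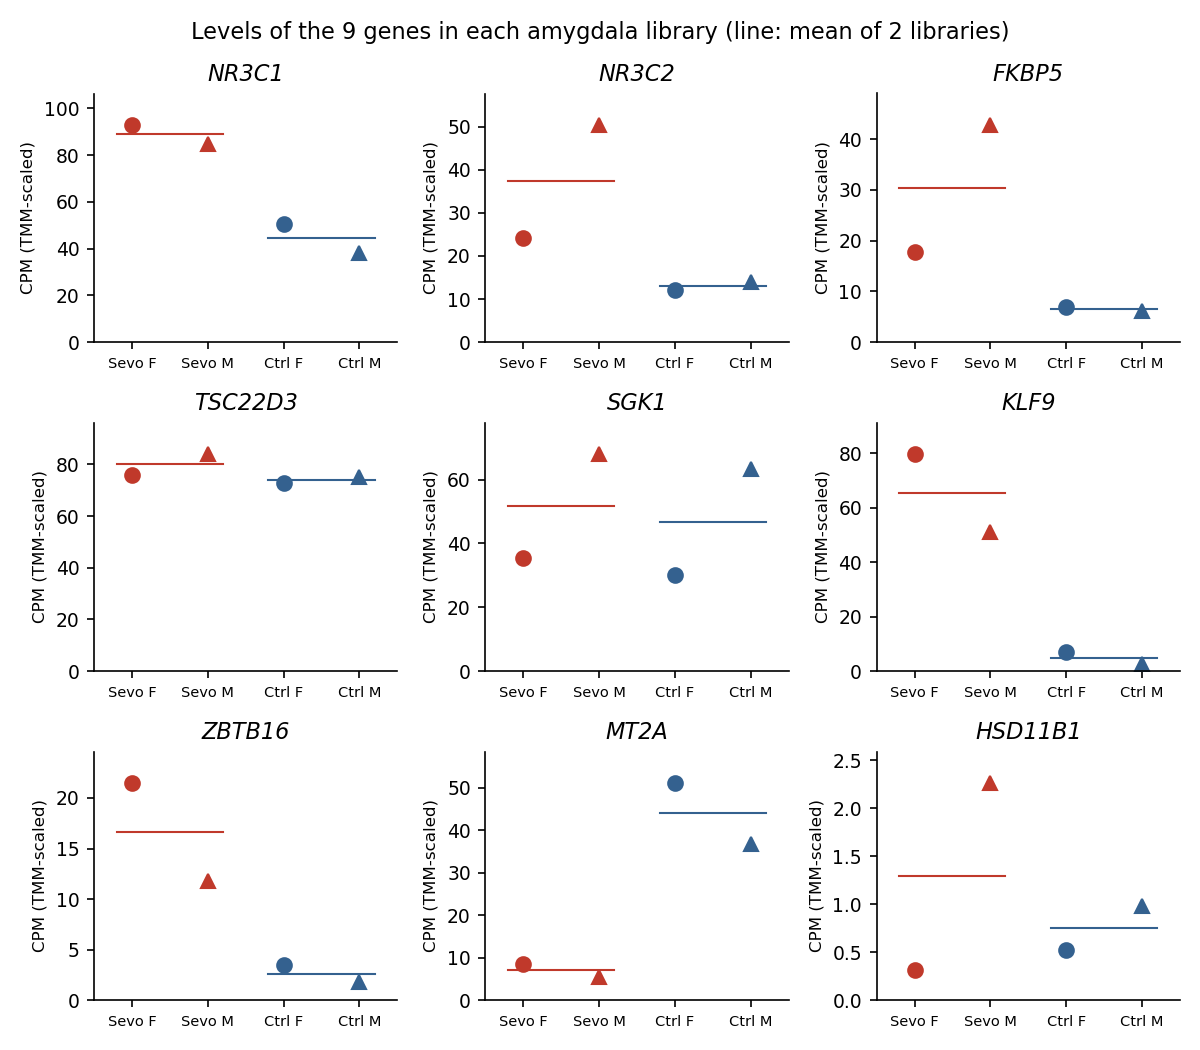
Level of each of the 9 genes in the sevoflurane female, sevoflurane male, control female and control male libraries, in CPM after TMM scaling, with a separate vertical axis from 0 for each gene. Circles are females, triangles are males and each line is the mean of the 2 libraries of a condition. The sevoflurane libraries lie wholly above the controls for NR3C1, NR3C2, FKBP5, TSC22D3, KLF9 and ZBTB16, wholly below them for MT2A, and overlap them for SGK1 and HSD11B1.

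The glucocorticoid receptor gene NR3C1 had 93.0 CPM in the female and 85.0 CPM in the male after sevoflurane, against 50.5 CPM in the female and 38.3 CPM in the male control library. Both sevoflurane libraries stood above both controls, and NR3C1 averaged 89.0 ± 5.72 CPM after sevoflurane and 44.4 ± 8.63 CPM in controls (SD, n = 2 each). Its log2 fold change was 1.003 ± 0.27 (SE; edgeR adjusted p = 0.0279), with 0.88 between the female and 1.15 between the male libraries. The call was lost without the control male (0.79, edgeR adjusted p = 0.207), without the sevoflurane female (0.94, adjusted p = 0.0770) and without the sevoflurane male library (1.07, adjusted p = 0.0658). Of all tested genes, 26.6% had a larger log2 fold change than NR3C1.

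The mineralocorticoid receptor gene NR3C2 had 24.2 CPM in the female and 50.5 CPM in the male after sevoflurane, against 12 CPM in the female and 13.9 CPM in the male control library. The controls lay close together, whereas the sevoflurane male stood far above the sevoflurane female. Means were 37.4 ± 18.6 CPM after sevoflurane and 12.9 ± 1.31 CPM in controls (SD, n = 2 each), a log2 fold change of 1.53 ± 0.43 (SE; edgeR adjusted p = 0.0308). Without the sevoflurane male library the log2 fold change was 0.91 and the call was lost (edgeR adjusted p = 0.169).

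The genes whose pattern over the 4 libraries was most like that of each receptor were found by the root mean square difference of log2 CPM, centred for each gene. For NR3C1 they were SLC44A5, RCOR3 and RABGEF1, with differences of 0.0201, 0.0252 and 0.0303. For NR3C2 the closest were ATP8A1 and COL21A1, with differences of 0.0785 and 0.0791. This likeness rests on 4 libraries and carries no p.

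FKBP5, a co-chaperone that lowers the affinity of the glucocorticoid receptor for hormone and is itself induced by that receptor, had 17.8 CPM in the female and 42.9 CPM in the male after sevoflurane, against 6.98 CPM in the female and 6.13 CPM in the male control library. As with NR3C2, the controls were close together and the sevoflurane male was the highest library. FKBP5 averaged 30.3 ± 17.7 CPM after sevoflurane and 6.56 ± 0.602 CPM in controls (SD, n = 2 each). The log2 fold change was 2.21 ± 0.50 (SE; edgeR adjusted p = 0.0153), and 1.44 without the sevoflurane male library, where the call was lost (edgeR adjusted p = 0.0905). The ratio of sevoflurane to control was 2.55 between the female libraries (95% counting interval 2.03 to 3.21) and 6.99 between the male libraries (5.45 to 9.10). These intervals cover counting error only, and with 1 library per sex and condition the difference between the sexes in this response was not tested.

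KLF9, a zinc finger transcription factor induced by glucocorticoids and thyroid hormone, showed the largest change of the 9 genes. It had 80.0 CPM in the female and 51.2 CPM in the male after sevoflurane, against 7.05 CPM in the female and 2.58 CPM in the male control library. The lowest sevoflurane library was far above the highest control, and within both conditions the female library was the higher. KLF9 averaged 65.6 ± 20.4 CPM after sevoflurane and 4.81 ± 3.16 CPM in controls (SD, n = 2 each). The log2 fold change was 3.75 ± 0.55 (SE; edgeR adjusted p = 0.00432), and only 5.21% of tested genes had a larger one. It was 4.68 without the control female library, and KLF9 was called in every fit that left out 1 library.

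ZBTB16, the transcription factor PLZF, is strongly induced by glucocorticoids in several human and rodent cell types. It had 21.5 CPM in the female and 11.7 CPM in the male after sevoflurane, against 3.46 CPM in the female and 1.78 CPM in the male control library. The order of the libraries was the same as for KLF9, with means of 16.6 ± 6.91 CPM after sevoflurane and 2.62 ± 1.19 CPM in controls (SD, n = 2 each). Its log2 fold change was 2.65 ± 0.56 (SE; edgeR adjusted p = 0.0125), with nearly the same value between females (2.59) as between males (2.63). Without the sevoflurane female library it was 2.16 and the call was lost (edgeR adjusted p = 0.0723), and without the control female it was 3.24.

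TSC22D3, which encodes the glucocorticoid-induced leucine zipper GILZ, showed little difference. It had 75.9 CPM in the female and 84.2 CPM in the male after sevoflurane, against 72.7 CPM in the female and 75.2 CPM in the male control library. The sevoflurane libraries lay above the controls by a margin smaller than the spread within the sevoflurane group. With a log2 fold change of 0.11 ± 0.24 (SE) it was not called (edgeR adjusted p = 0.732). With library totals in place of TMM it was 0.35, where the median over all genes was 0.24, and it was again not called (edgeR adjusted p = 0.290).

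SGK1, a kinase induced by glucocorticoids and by aldosterone that regulates ion channels, had 35.5 CPM in the female and 68.1 CPM in the male after sevoflurane, against 30.0 CPM in the female and 63.3 CPM in the male control library. The libraries were ordered by sex and not by condition, and the groups overlapped. For SGK1 the log2 fold change after sevoflurane was 0.15 ± 0.47 (SE; edgeR adjusted p = 0.816), and its sign turned without the sevoflurane male (−0.39) or the control female library (−0.26). In mice SGK1 is known as a corticosterone-induced gene of oligodendrocytes. The 7 tested gene IDs of the oligodendrocyte list were all detected, and their summed level was 3048 CPM in the female and 3995 CPM in the male after sevoflurane, against 1480 CPM in the female and 6417 CPM in the male control library. Of these IDs 3 were called higher in males and 1 was called higher after sevoflurane. The count higher after sevoflurane became 3 with the control male left out and 0 with the sevoflurane male left out, and 1 ID was called lower without the control female. Their part in the SGK1 values was not tested.

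MT2A, a small metal-binding protein whose gene responds to glucocorticoids and to zinc, was the one of the 9 genes that fell. It had 8.55 CPM in the female and 5.56 CPM in the male after sevoflurane, against 51.2 CPM in the female and 36.9 CPM in the male control library. The groups lay far apart, with means of 7.05 ± 2.11 CPM after sevoflurane and 44.0 ± 10.1 CPM in controls (SD, n = 2 each). The log2 fold change was −2.64 ± 0.38 (SE; edgeR adjusted p = 0.00409), called in every fit that left out 1 library. Only 3.45% of tested genes had a lower log2 fold change. Other metallothioneins moved the same way. Of 6 metallothionein gene IDs in the count table, 4 were tested and all 4 were called lower, MT2A among them. The log2 fold changes were −3.88 ± 0.70 for MT1X, −3.29 ± 0.32 for MT1E and −2.74 ± 0.29 for the brain form MT3 (SE). Another MT1E ID was not tested, with 0 and 0 reads after sevoflurane, against 115 (female) and 3 (male) in controls. MT1F, also untested, had 1 read, in the control female. Leaving out a control library moved MT1X to −2.89 (female left out) or −4.48 (male left out). MT1E and MT3 fall outside the naming rule and were chosen after their values were seen. Metallothionein genes lie side by side and have near-identical sequences, so the split of reads among them is uncertain.

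HSD11B1 was scarcely detected, with 5 (female) and 33 (male) reads after sevoflurane, against 8 (female) and 11 (male) in controls. That is 0.317 and 2.27 CPM after sevoflurane, against 0.522 and 0.977 CPM in controls, so the groups overlapped. A log2 fold change of 0.79 ± 1.03 (SE) was not called (edgeR adjusted p = 0.567) and was −1.20 without the sevoflurane male library. In the RefSeq annotation of another macaque assembly HSD11B1 overlaps the protein-coding genes LAMB3 and G0S2. Overlapping entries were also listed for NR3C1 (3, of which 1 is protein-coding), NR3C2 (2), FKBP5 (6), SGK1 (3) and KLF9 (1), and 0 for TSC22D3, ZBTB16 and MT2A. Reads of overlapping genes may be counted together, and the sources used here do not give whether the counting kept strand.

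**Figure D2:**
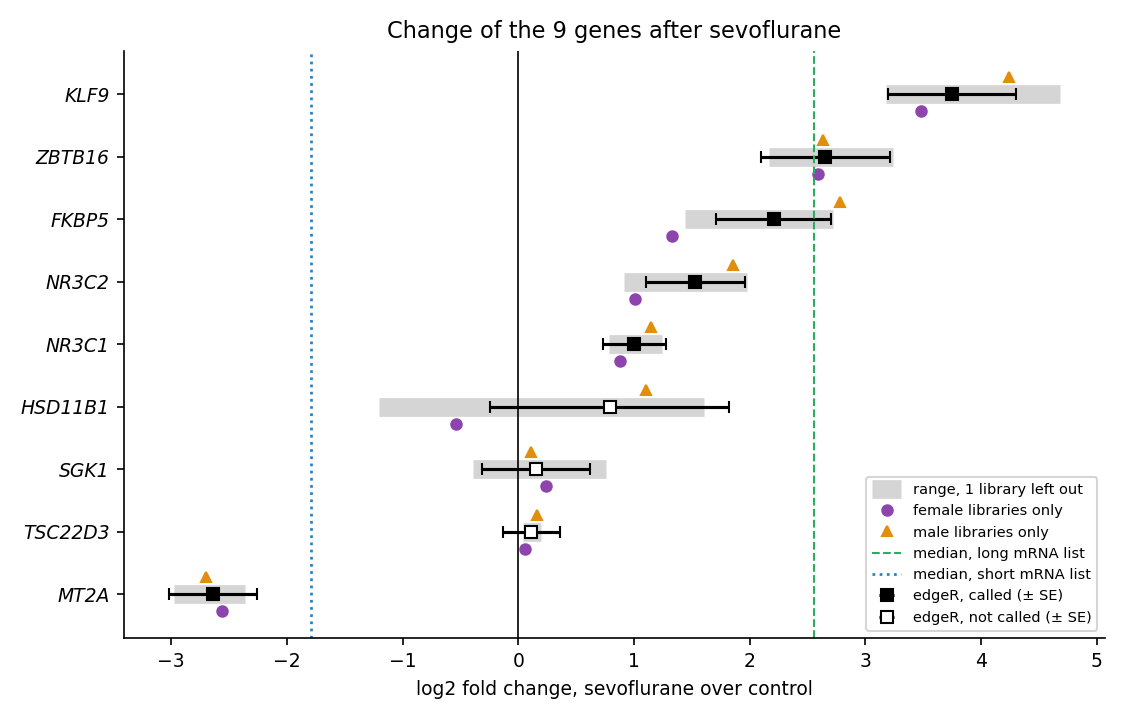
Log2 fold change of each gene, sevoflurane over control, from edgeR with its standard error (squares, filled where called), with the change between the male libraries (triangles) and between the female libraries (circles). Grey bars span the fits that leave out 1 library, and the vertical lines mark the medians of the long (2.56) and short (−1.79) messenger RNA lists; KLF9 and ZBTB16 lie at or above the long median and MT2A below the short one.

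Transcript classes moved widely in the same comparison. The lists of long and short messenger RNAs came from general knowledge, with earlier results of these data known. Of 35 long messenger RNAs, 32 were called higher and 0 lower (median log2 fold change 2.56). Of 60 short ones, from ribosomal protein, proteasome core and Sm spliceosome genes, 0 were called higher and 52 lower, with a median of −1.79. NR3C1, NR3C2 and FKBP5, at 1.003, 1.53 and 2.21, lay below the median of the long list. ZBTB16, at 2.65, lay close to it and KLF9, at 3.75, above it, and MT2A, a very short messenger RNA, lay below the median of the short list at −2.64. The part of transcript length in these values was not tested. Among markers of other cells, all 5 tested genes of meninges and fibroblasts had negative log2 fold changes and 4 were called lower. These markers summed to 95.9 and 73.4 CPM in the sevoflurane libraries, against 521 and 494 CPM in the controls, with none at 0 reads in all libraries. Of 7 microglial markers 5 were called lower and 0 higher, with sums of 162 and 222 CPM after sevoflurane, against 434 and 393 CPM in controls. The microglial marker P2RY12 had a positive log2 fold change (0.23, not called). Endothelial markers split, with 2 of 7 called higher and 2 lower. So did those of pericytes and smooth muscle, with 2 of 6 called higher and 1 lower. Astrocyte markers were mixed. Of 7 tested, 1 was called higher and 3 lower, with a median log2 fold change of 0.56, and the count higher was 3 with library totals. GFAP was at −2.53 and SLC1A2 at 4.30. The 7 summed to 3010 and 3799 CPM after sevoflurane, against 4350 and 4059 CPM in controls. The part of any of these cells in the fall of MT2A was not tested.

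Both sevoflurane libraries lay above both controls for 6 of the 9 genes and below both for 1. Over all tested genes these shares were 37.7% above and 37.3% below, so 75.0% of tested genes did not overlap between the conditions.

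Ratios of reads between genes of the same library do not depend on the scaling between libraries. The ratio of NR3C2 to NR3C1 reads was 0.261 (female) and 0.594 (male) after sevoflurane, against 0.238 (female) and 0.362 (male) in controls. The groups overlapped, and within each sex the sevoflurane library was higher, by 1.10-fold in females and 1.64-fold in males. The counting intervals overlapped between the females (0.232 to 0.292 after sevoflurane, 0.201 to 0.28 in the control). Between the males they did not (0.542 to 0.652, against 0.299 to 0.436). FKBP5 per NR3C1 read was 0.191 (female) and 0.504 (male) after sevoflurane, against 0.138 (female) and 0.160 (male) in controls. Thus FKBP5 was higher relative to its receptor gene in both sevoflurane libraries. The counting intervals of the sevoflurane female (0.168 to 0.217) and of the control male (0.122 to 0.207) overlapped.

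KLF9 per NR3C1 read was 0.859 (female) and 0.602 (male) after sevoflurane, against 0.140 (female) and 0.0673 (male) in controls. ZBTB16 per NR3C1 read was 0.231 and 0.138 in the sevoflurane libraries, against 0.0685 and 0.0464 in the controls. Both transcription factors were thus higher relative to NR3C1 in each sevoflurane library than in either control. TSC22D3 went the other way, with 0.816 and 0.991 reads per NR3C1 read after sevoflurane, against 1.44 and 1.97 in controls. TSC22D3 itself did not fall (log2 fold change 0.11, not called), whereas NR3C1, the denominator, was called higher (1.003). MT2A had 0.0918 and 0.0655 reads per NR3C1 read after sevoflurane, against 1.01 and 0.963 in controls. SGK1 per NR3C2 read was 1.46 and 1.35 after sevoflurane, against 2.50 and 4.56 in controls, so it was lower relative to the mineralocorticoid receptor gene in both sexes. Here too the numerator was not called (SGK1, 0.15) and the denominator was called higher (NR3C2, 1.53). With 2 libraries against 2, the exact two-sided permutation test over samples cannot go below p = 0.333, and no other test of these ratios was run.

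**Figure D3:**
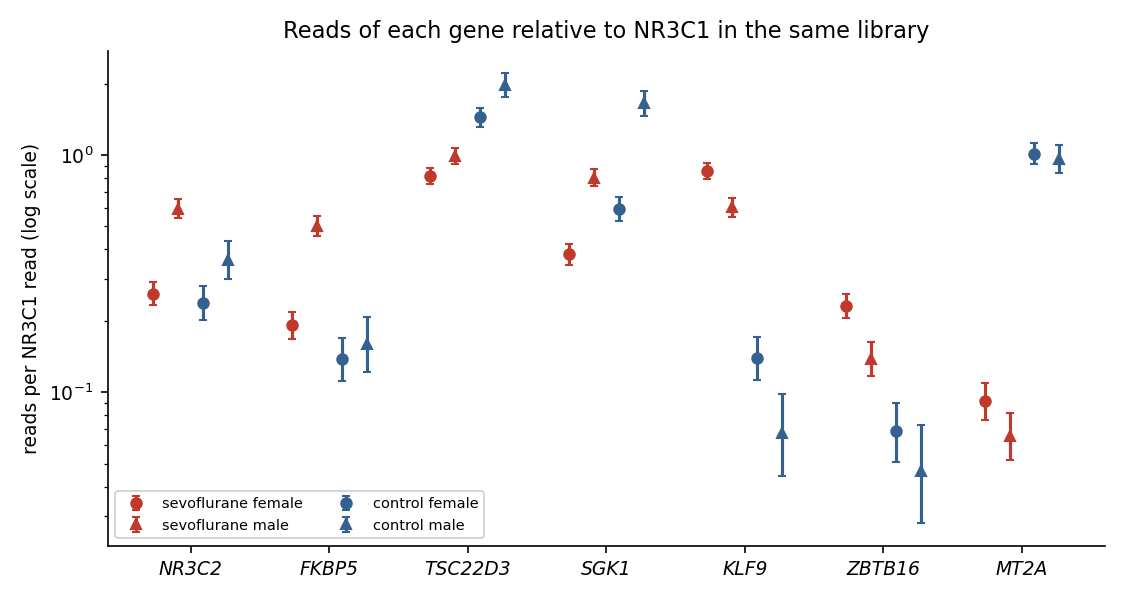
Reads of 7 genes per NR3C1 read in the same library, on a log axis, for the sevoflurane female, sevoflurane male, control female and control male libraries. Bars are 95% exact counting intervals; KLF9, ZBTB16 and FKBP5 are higher in both sevoflurane libraries, TSC22D3 and MT2A are lower, and NR3C2 and SGK1 overlap between the conditions. HSD11B1 is left out because of its few reads.

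The male libraries were compared with the female ones in a fit with condition and sex as terms. None of the 9 genes was called by edgeR or by DESeq2, and 1.84% of all tested genes were called by edgeR. Without adjustment, 2 of the 9 genes had p under 0.05 by each tool, and by edgeR these 2 were SGK1 and KLF9. The share of all tested genes under that unadjusted threshold was not counted, so this count has no background beside it. SGK1 was higher in males by a log2 fold change of 1.01 ± 0.30 (SE; edgeR adjusted p = 0.124), with 0.94 between the sevoflurane libraries and 1.07 between the controls. KLF9 was lower in males, at −0.99 ± 0.36 (SE; edgeR adjusted p = 0.239), with −0.64 between the sevoflurane libraries and −1.40 between the controls. NR3C2 and FKBP5 differed between the sexes mainly among the sevoflurane libraries, at 1.05 and 1.26 (male over female, log2), against 0.20 and −0.18 among the controls. This contrast between conditions was not tested, because no residual degrees of freedom remain for it.

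**Figure D4:**
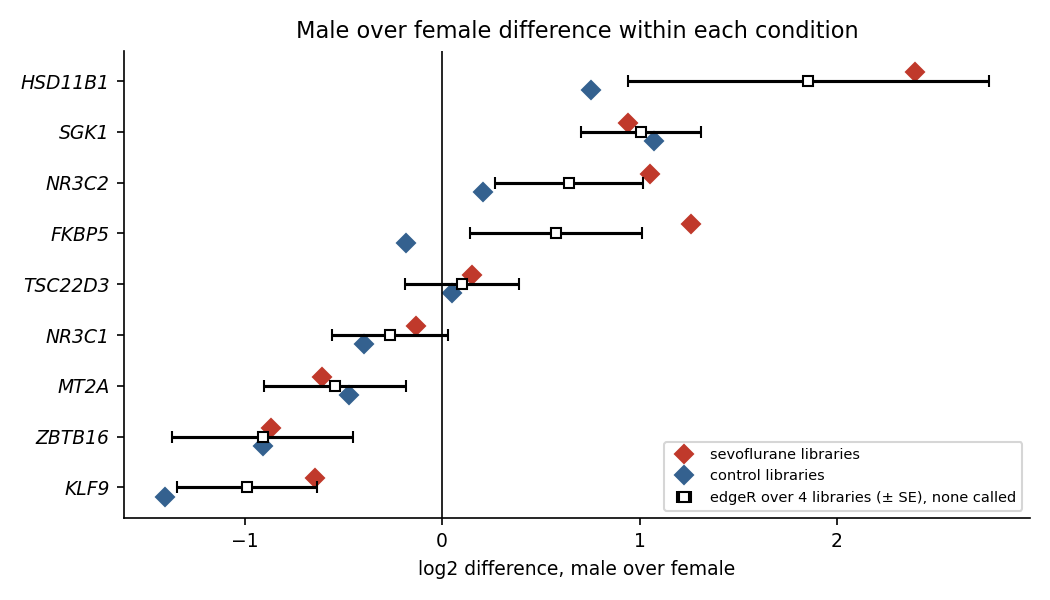
Log2 difference of male over female libraries for each gene, within the sevoflurane (red) and control (blue) libraries, with the edgeR estimate over the 4 libraries and its standard error (open squares). SGK1 is near 1 in both conditions and ZBTB16 near −0.9 in both, while FKBP5 and NR3C2 part between the conditions.

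Of 34 other glucocorticoid-induced genes in the table, 33 were tested. Of these 5 rose, 1 fell and 27 had no call, around a median log2 fold change of 0.38. Over all tested genes 21.3% were called higher and 19.4% lower, which is the background for this list and for those below. The genes that rose were led by FOXO3, a transcription factor active when insulin signalling is low, with 133 and 85.9 CPM after sevoflurane, against 13.5 and 5.51 CPM in controls (log2 fold change 3.52 ± 0.50 SE, and 4.33 without the control female). ANGPTL4, a secreted inhibitor of lipoprotein lipase, was the gene that fell, with 3.29 and 2.06 CPM after sevoflurane, against 10.2 and 13.2 CPM in controls (−2.12 ± 0.50). Its call was lost without the sevoflurane male library (edgeR adjusted p = 0.0870). With sex as a second term 6 genes of this list rose and 6 fell. Several widely used targets were not called, and they were looked up after their values were seen. PER1, a clock gene with glucocorticoid-responsive elements, had 1377 and 1103 CPM after sevoflurane, against 1526 and 1192 CPM in controls. DUSP1, a phosphatase of MAP kinases, had 31.1 and 18.8 CPM after sevoflurane, against 82.6 and 27.3 CPM in controls (−1.14 ± 0.56, edgeR adjusted p = 0.143).

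**Figure D5:**
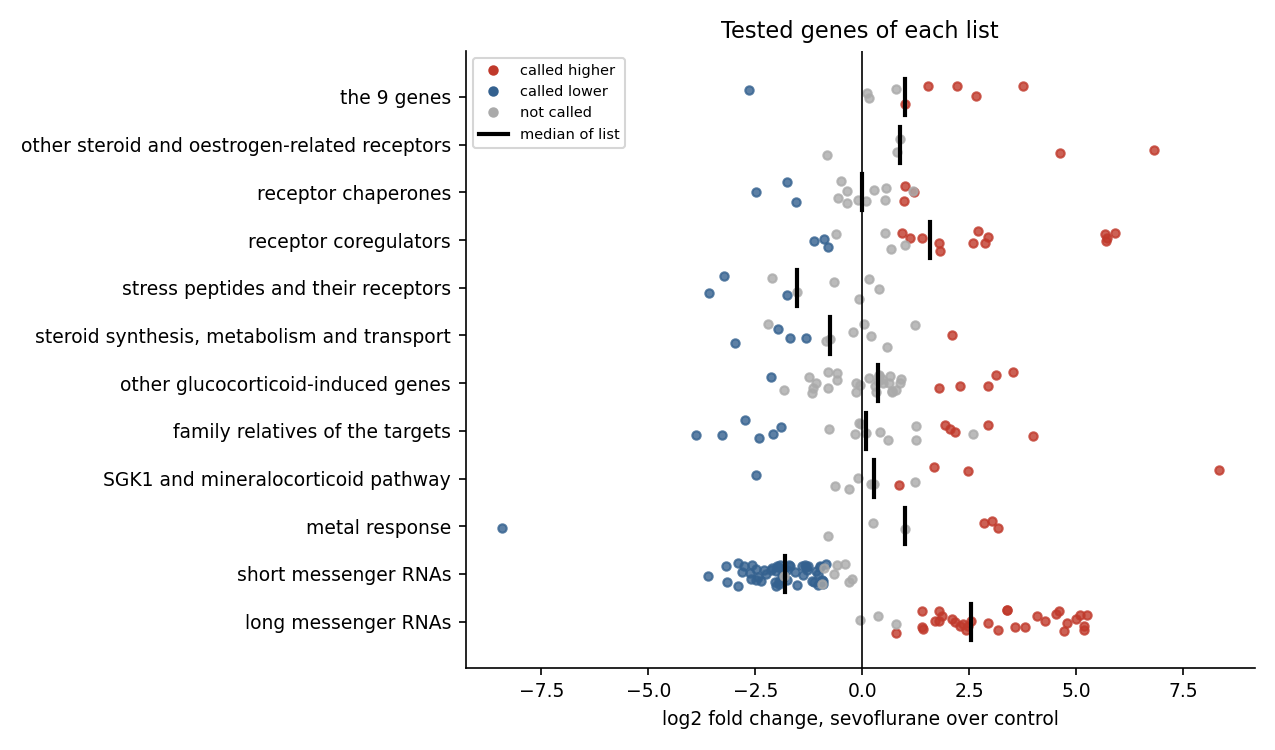
Log2 fold change, sevoflurane over control, of each tested gene in the 9 genes, 9 pathway lists and 2 lists of transcript length, with called higher genes in red, called lower genes in blue, genes not called in grey and the median of each list as a bar. The other glucocorticoid-induced genes centre near 0 (median 0.38), the coregulators lie mostly above it (1.60) and the short messenger RNAs lie below it (−1.79).

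Chaperones hold unliganded corticosteroid receptors in a hormone-binding state. All 16 listed were tested. They split into 3 that rose, 3 that fell and 10 without a call, around a median log2 fold change of −0.0010. HSPA4, a co-chaperone of the Hsp70 family, rose to 348 and 384 CPM after sevoflurane, against 153 and 165 CPM in controls (1.204 ± 0.24 SE). STUB1, a ubiquitin ligase that acts on chaperone clients, fell to 75.4 and 56.3 CPM, against 352 and 384 CPM in controls (−2.48 ± 0.28). Without either control library 0 chaperones were called higher, and HSPA4 lost its call (edgeR adjusted p = 0.0524 with the female and 0.0522 with the male control left out). FKBP4, which competes with FKBP5 for the receptor complex and was looked up after its values were seen, had 249 and 114 CPM after sevoflurane, against 207 and 257 CPM in controls (−0.35 ± 0.40, edgeR adjusted p = 0.506).

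Coregulators that bind nuclear receptors were called higher in most cases. Of 20, 13 rose, 3 fell and 4 were not called, and the median log2 fold change was 1.60, beside 2.56 for the long messenger RNAs. PPARGC1A, a coactivator of mitochondrial genes, had 19.0 and 17.0 CPM after sevoflurane, against 0.457 and 0.0888 CPM in controls (5.91 ± 0.71 SE, from 8 control reads). Leaving out a control library moved it to 7.54 (female left out) or 5.24 (male left out). EHMT2, a histone methyltransferase, fell by 1.13 ± 0.33 on the log2 scale, a call lost with library totals (edgeR adjusted p = 0.0757) and without the control female (0.0797) or the sevoflurane male (0.110). No coregulator was called lower with library totals.

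Of 16 peptides of the stress axis and their receptors, 9 were tested, 0 rose and 3 fell, with a median of −1.52. POMC, the precursor of ACTH, had 9 and 7 reads after sevoflurane, against 27 and 124 in controls. AVP, which encodes vasopressin, had 10 and 4 reads after sevoflurane, against 34 and 74 in controls. Both calls were lost without the control male library, where the log2 fold changes were −1.76 for POMC and −2.30 for AVP, against −3.57 ± 1.001 and −3.24 ± 0.87 (SE) over all 4 libraries. They were also lost without either sevoflurane library (edgeR adjusted p = 0.0738 to 0.146). POMC was at −4.34 without the control female, and AVP at −3.94 without the sevoflurane female. UCN, a ligand of the corticotropin-releasing hormone receptors, fell to 7.60 and 4.95 CPM, against 19.2 and 23.1 CPM in controls (−1.75 ± 0.40), and lost its call without the sevoflurane male library (edgeR adjusted p = 0.0772). CRH itself, looked up after its values were seen, was at 14.2 and 5.70 CPM after sevoflurane, against 46.2 and 11.0 CPM in controls (−1.52 ± 0.74, edgeR adjusted p = 0.145).

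Of 20 genes of steroid synthesis, metabolism and transport, 13 were tested, and 1 rose and 4 fell, with a median of −0.76. H6PD supplies the reduced cofactor that the HSD11B1 enzyme uses and rose to 5.13 and 6.25 CPM after sevoflurane, against 1.63 and 0.977 CPM in controls (2.11 ± 0.60 SE). This call was lost without either sevoflurane library or without the control male (edgeR adjusted p = 0.0972 to 0.160). TSPO, a protein of the outer mitochondrial membrane used as a marker of reactive glia, fell to 2.91 and 1.79 CPM, against 14.3 and 23.0 CPM in controls (−2.98 ± 0.50).

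Among other steroid and oestrogen-related receptors, 5 of 7 were tested, 2 rose and 0 fell, and the median was 0.89, also with PGR at its bound. PGR, the progesterone receptor gene, had 18 and 12 reads after sevoflurane and 0 in both controls, which makes it at least 8.76-fold higher against a floor of 3 reads over the control group. ESRRG, an orphan receptor gene, had 123 and 56 reads after sevoflurane, against 3 and 3 in controls (4.62 ± 0.77 SE, and 4.03 without the sevoflurane female library). The call of PGR was lost without either control or without the sevoflurane male library (edgeR adjusted p = 0.0597 to 0.104), and PGR was not tested without the sevoflurane female.

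Relatives of the targets were called in both directions, with 5 of 21 tested gene IDs higher, 6 lower and a median of 0.09. KLF13, of the same zinc finger family as KLF9, rose to 183 and 160 CPM after sevoflurane, against 16.2 and 4.97 CPM in controls (4.004 ± 0.57 SE). Leaving out a control library moved it to 5.13 (female left out) or 3.37 (male left out). Of 11 tested genes of the SGK1 and mineralocorticoid pathway, 4 rose and 1 fell, with a median of 0.27. RICTOR, a subunit of the kinase complex that activates SGK1, had 518 and 651 reads after sevoflurane, against 3 and 0 in controls, a ratio of 341 (95% counting interval 116 to 1657) that rests on the 3 reads of the control female. The fitted log2 fold change of RICTOR was 8.34 over all 4 libraries, 7.54 with the male control left out and 12.1 with the female control left out, where no control read remained and the fitted value is no measure of size. NHERF2, a scaffold through which SGK1 regulates sodium exchange, fell to 19.4 and 13.2 CPM, against 86.7 and 96.3 CPM in controls (−2.49 ± 0.31).

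Of 7 genes of the metal response, 3 rose and 1 fell, with a median of 1.01. SLC30A10, a metal exporter, rose to 9.05 and 13.1 CPM after sevoflurane, against 1.04 and 1.42 CPM in controls (3.17 ± 0.54 SE). MTF1, the zinc-sensing factor that drives metallothionein genes, was at 15.9 and 13.3 CPM after sevoflurane, against 1.11 and 2.49 CPM in controls (3.03 ± 0.56, edgeR adjusted p = 0.00827; looked up after its values were seen). MTF1 was called higher where the tested metallothionein gene IDs were called lower. The gene that fell was CP, which encodes the copper protein ceruloplasmin, with 12 and 3 reads after sevoflurane, against 6 (female) and 3879 (male) in controls. Its log2 fold change was −8.43 ± 2.65 (SE; edgeR adjusted p = 0.0444) over all 4 libraries and 0.27, not called, without the control male. With sex as a second term it was −6.51.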

How the data were processed

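RNA from the amygdala was sequenced in 4 libraries. The authors deposited 1 table of unnormalized read counts by gene and library. HISAT2 made the alignments, per the submitters' processing notes. The sources used here do not give its version, the counting software, the build or the strand setting, so genes that overlap or share sequence are uncertain. Symbols came from a table of gene IDs that named 24173 of 35395 IDs.

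Low-count genes were removed with edgeR 4.0.16 (filterByExpr, minimum count 10), which left 15417 genes, and counts were scaled with TMM. The quasi-likelihood F-test set sevoflurane against control in a model of condition alone (2 residual degrees of freedom), and males against females in a model of condition and sex (1 residual degree of freedom). P-values were adjusted by Benjamini-Hochberg over all tested genes. Standard errors were derived from the F statistic. Changes within 1 sex are differences of log2 CPM (prior count 2). The code of the fits was checked on simulated counts with few changed genes and no difference between the sexes. That setting differs from these data, so the check does not bear on the calls given here. In fits without 1 library, the lone library of a group is assumed to vary like the other group. Alternatives were RLE factors, library totals, other filters, DESeq2 1.42.0, a sex term and leaving out each library.

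The 9 genes and all lists were chosen from general knowledge with earlier results of these data known. Of 349 listed symbols 333 were in the table. Named genes were the 9 genes, the called gene of largest change in each direction of each pathway list, and all called genes of lists with 3 or fewer calls. For each receptor the tested genes of most similar pattern were also named, up to 3; 1 of them is not reported here.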

Additional observations from a re-analysis of the deposited data

Results flagged for a closer look

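HSD11B1 went opposite ways in the sexes, with a log2 change after sevoflurane of −0.54 between the female and 1.11 between the male libraries. The ratio of sevoflurane to control was 0.606 in females (95% counting interval 0.156 to 2.10) and 2.32 in males (1.14 to 5.09). The female interval includes no change, at 5 against 8 reads. Both intervals cover counting error only and hold no spread between libraries, so neither direction is established. CP also differed in sign, with a log2 change of 0.76 between the female and −9.96 between the male libraries. The female value rests on 12 reads after sevoflurane against 6 in the control, so its direction is uncertain. CP was read 3879 times in the control male library, the one with 17640 CPM of choroid plexus markers, nearly all of it TTR. For both genes the difference between the sexes was not tested, because each sex has 1 library per condition.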

How the results depend on the processing

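The counts of the 9 genes that were called (6), called higher (5) and called lower (1) were the same with RLE factors, library totals, no filter, a filter of at least 5 CPM on average, DESeq2 and sex as a second term; HSD11B1 was not tested under the 5 CPM filter. Without 1 library, 3 to 6 genes were called, 2 to 5 higher and 1 lower, with the fewest when the sevoflurane male was left out. Over all genes 3469 to 5800 were called without 1 library, against 6278 with all. The sign turned for SGK1 without the sevoflurane male (−0.39) and without the control female library (−0.26), for HSD11B1 without the sevoflurane male (−1.20), and for CP without the control male (0.27); the cause was not tested, and these fits have fewer samples. SGK1 was at 0.76 without the control male and HSD11B1 at 1.61 without the sevoflurane female, neither called. CP was at −9.63, −7.80 and −9.41 without the sevoflurane female, the sevoflurane male and the control female, and lost its call in the first (edgeR adjusted p = 0.144) and second (0.191) of these; with sex as a second term it was at −6.51 and called. With library totals the median over all tested genes shifted to 0.24 (log2), and 63.3% of calls were higher, against 52.3% with TMM.

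Counts in the pathway lists were small and several moved by over 1.5 times. Coregulators called lower numbered 3, and 0 with library totals. Stress peptides called lower numbered 3, 5 with no filter and 1 with the 5 CPM filter. Steroid metabolism genes called higher numbered 1, 2 with library totals and 0 with the 5 CPM filter. Other steroid receptors called higher numbered 2, and 0 with the 5 CPM filter. Glucocorticoid-induced genes called lower numbered 1, 6 with no filter or with the sex term, and 2 with the 5 CPM filter or DESeq2. SGK1 pathway genes called lower numbered 1, and 2 with no filter. Without 1 library, 3 to 6 glucocorticoid-induced genes were called higher and 0 to 4 lower, 0 to 2 chaperones higher, 0 to 1 coregulators lower, 0 to 4 stress peptides lower, 1 other steroid receptor higher and 0 to 1 lower, 0 to 1 steroid metabolism genes higher, 2 to 6 relatives higher, 1 to 2 SGK1 pathway genes lower and 0 to 1 metal response genes lower. The labels number no replicates, but each condition has 1 library of each sex, so the fit with sex as a second term pairs the libraries by sex. In that fit 6 of the 9 genes were called, 5 higher and 1 lower, and 7825 of all genes.

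Depth limits HSD11B1, POMC, AVP and PGR, which have few reads. ESRRG, PPARGC1A and RICTOR have few reads in the controls, so the size of their fold changes is uncertain.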
